A study of Mus musculus with 14 samples.

Results

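The genes described here are 9 genes that lie beside the imprinted Prader-Willi domain on mouse chromosome 7 and are named as not imprinted: Tubgcp5, Nipa2, Nipa1, Herc2, Oca2, Gabrg3 and Gabra5 on one side, and Otud7a and Klf13 on the other. They were chosen by symbol, and every probe set annotated to one of the 9 symbols was taken. That gave 24 of the 45037 probe sets that are not array controls, for 9 of the 18193 genes named by a probe set with 1 symbol. Of these 24 probe sets, 23 carry a member symbol alone. The remaining one, 1430101_at, is annotated to both 6330406O05Rik and Gabrg3 and is named by its ID. The arrays do not separate the parental alleles, so the label "not imprinted" is background and was not measured.

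RNA of brain and of a thigh muscle, the vastus lateralis, was measured on 14 Affymetrix Mouse Genome 430 2.0 arrays, 1 array per sample. The sample titles say brain tissue sample and name no region. Mutant mice lacked the imprinting center of the domain (genotype PWS-IC del), and the controls were wild-type littermates of matched age. Both genotypes were F1 hybrids of FVB and B6. There were 4 wild-type and 3 mutant arrays for each tissue, called biological replicas in the labels. The sources used here give neither ages nor the parent that passed on the deletion, nor do they say whether a brain and a muscle sample with the same number came from 1 mouse.

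In the imprinted domain, genes such as Snrpn and Ndn are read from the paternal chromosome, and the imprinting center switches them on. Loss of their paternal copy causes Prader-Willi syndrome. The flanking genes are read from both chromosomes. In people the usual chromosomal deletion also removes HERC2, OCA2 and the GABA-A receptor genes, and the longer form removes NIPA1, NIPA2 and TUBGCP5 as well, whereas OTUD7A and KLF13 belong to a neighbouring deletion region. A deletion of the imprinting center alone leaves the flanking genes in place on the DNA.

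Levels are log2(intensity + 16), so the scale has a floor of 4. Median intensity was 142.0 to 170.1 on the brain arrays and 88.7 to 96.4 on the muscle arrays. Arrays correlated with each other at 0.952 to 0.992 within brain and 0.981 to 0.991 within muscle. On the first principal component of brain, wild-type arrays 1 and 2 lay at 84.3 and 32.1, while the other 5 lay between -33.4 and -12.8. Neuron markers averaged 12.79 to 12.92 on the brain arrays and 5.74 to 7.63 on the muscle arrays, and skeletal muscle markers averaged 13.66 to 13.93 on the muscle arrays, so the tissues carried their own markers. Skeletal muscle markers also averaged 9.53 on wild-type brain array 1 and 8.96 on wild-type brain array 3, against 6.36 to 6.74 on the other brain arrays, and cerebellum markers averaged 11.78 on mutant brain array 2, against 8.24 to 9.74 on the others. Muscle arrays were uneven too. Fat cell markers averaged 11.32 on wild-type muscle array 2 and 10.90 and 11.65 on mutant muscle arrays 1 and 2, against 9.29 to 10.04 on the others. Slow fibre markers ran from 9.26 to 11.76 over the muscle arrays. The count of members called in brain, 0, was the same without wild-type arrays 1 and 2, without wild-type arrays 1 and 3, and without wild-type array 3 and mutant array 2. Fewer arrays give less power, so a count that stays at 0 cannot show that these arrays do not matter. Differences of single probe sets did move, as given below.

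The deletion was visible at the domain itself. Snrpn, which encodes a splicing protein and shares its start with the imprinting center, fell by 4.87 on the log2 scale in mutant brain. The long noncoding host transcript Snhg14 fell by 3.63 and the MAGE family gene Ndn fell by 4.13. In muscle Snhg14 fell by 2.20 and Ndn fell by 1.27. All of these passed an adjusted p of 0.05 in limma's moderated test, with Benjamini-Hochberg adjustment over all probe sets tested in that tissue. Snrpn in muscle, at -0.39, did not pass (adjusted p = 0.319). Magel2 (-1.95 in brain, adjusted p = 0.0789, and -0.03 in muscle) and Ipw (-0.09 and 0.49) passed in neither tissue. The same fit is the test behind each adjusted p below. Its p-values set a difference of group means against the spread between arrays, with the variance moderated over all tested probe sets. The number of arrays limits the precision: with 3 arrays against 4, no exact permutation p can be smaller than 0.0286.

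Most member probe sets read higher in brain than in muscle. Probe sets under the 0.25 quantile of mean level in a tissue were described but not tested there, which left 17 of the 24 member probe sets tested in brain and 12 in muscle, with 7 below that level in both. For comparisons between tissues a probe set entered if it reached that level in either one. Between wild-type brain and wild-type muscle, 17 could be tested, and 16 were higher in brain and 0 lower, at a median of 1.71. Oca2, Gabra5, Gabrg3 1439717_at and 1444549_at, and 1430101_at were too dim to test in muscle itself. For probe sets that enter on their brain level alone, a higher value in brain is close to fixed, so they add no support. The count and median of the members include them, and the background shares below include such probe sets of other genes. The background was 56.8% of all 36916 tested probe sets called higher in brain and 18.3% called lower, with a median of 0.50. The mutant arrays, which are other mice, gave 14 of 17 higher and 0 lower, at a median of 1.57, under the same limit. The quantile was taken on the arrays of each comparison, so in mutants Gabrg3 1422187_at entered and 1439717_at did not. There 54.8% of all probe sets were called higher and 18.7% lower, with a median of 0.47. The wild-type count changed with the scaling between tissues but still leaned to brain, under the same limit. With quantile normalization 13 members were higher and 3 lower in wild-type mice, and with median centring 12 and 2. Over all probe sets the lean turned: 11514 were higher and 15225 lower with quantile normalization, and 11068 and 15323 with median centring.

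**Figure D1:**
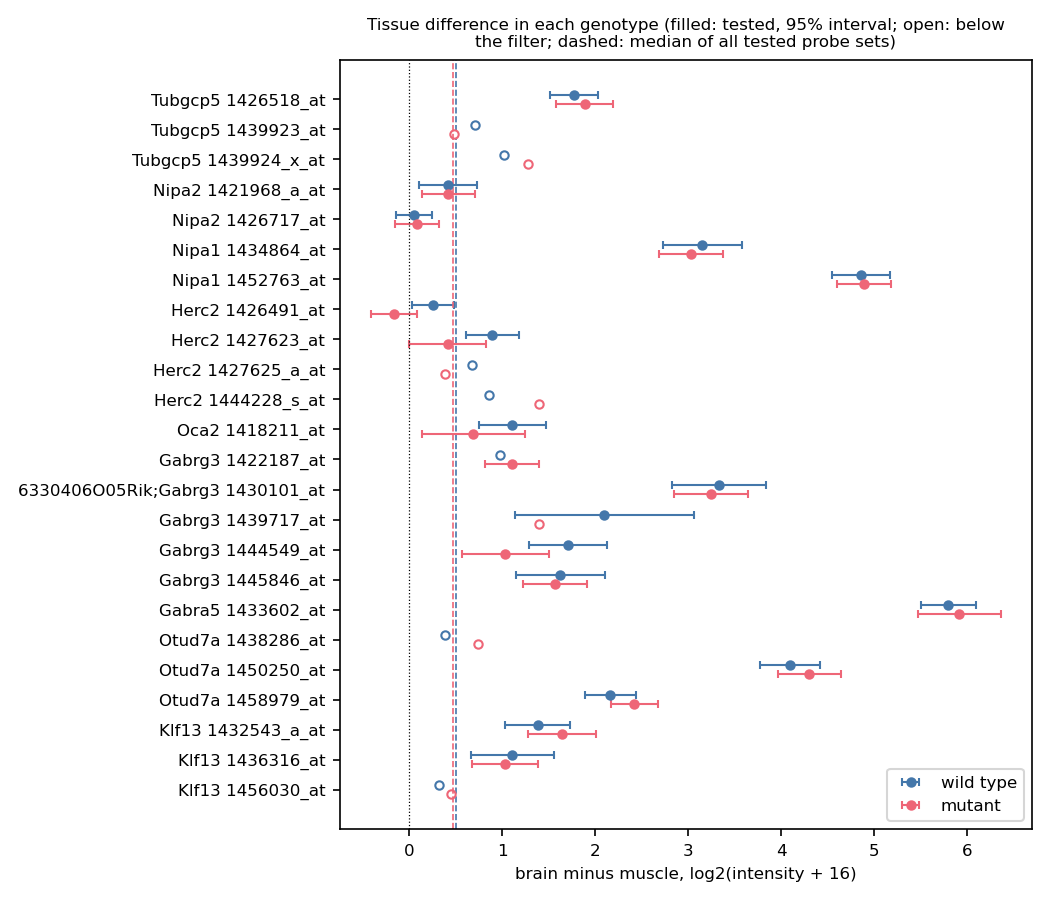
Brain minus muscle difference (x axis, log2 of intensity + 16) of every member probe set (y axis) in wild-type mice (blue, 4 and 4 arrays) and mutants (red, 3 and 3 arrays), with 95% intervals for tested probe sets, open circles for those below the filter on low values, and dashed lines at the median of all tested probe sets. Gabra5 lies farthest to the right at 5.80 and 5.91, while Nipa2 and Herc2 1426491_at lie left of the dashed medians of 0.50 and 0.47, and lie below 0 with quantile normalization or median centring.

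Gabra5 had the largest tissue difference of the members. It encodes a GABA-A receptor subunit found at extrasynaptic sites, above all in the hippocampus. Its probe set read 10.74, 10.61, 10.92 and 11.01 in wild-type brain and 4.76, 5.03, 5.11 and 5.20 in wild-type muscle. The muscle values were near the floor of the scale, so the difference of 5.80 (95% interval 5.50 to 6.09, adjusted p = 1.12e-09), a 55.6-fold difference, is compressed by the offset of 16. In the mutants the difference was 5.91. Gabra5 entered these comparisons on its brain level alone, so a higher value in brain was close to fixed.

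Nipa1 and Nipa2 encode related magnesium transporters and lie side by side, yet they were spread differently over the tissues. Nipa1 1434864_at read 10.28, 10.43, 10.91 and 10.96 in wild-type brain and 7.18, 7.82, 7.48 and 7.51 in wild-type muscle. The difference was 3.15 (8.88-fold, adjusted p = 2.37e-07), and the second Nipa1 probe set, 1452763_at, gave 4.86 (29.0-fold, adjusted p = 2.46e-09). Nipa2 1426717_at read 10.54, 10.65, 10.57 and 10.53 in wild-type brain and 10.46, 10.62, 10.46 and 10.56 in wild-type muscle. Its tissues overlapped, with a difference of 0.05 (95% interval -0.15 to 0.24, adjusted p = 0.622) as deposited, but it was called lower in brain with quantile normalization (-0.60, adjusted p = 0.000281) and median centring (-0.63, adjusted p = 0.000212). The other Nipa2 probe set, 1421968_a_at, was higher in brain by 0.42 (adjusted p = 0.019), below the median shift of all probe sets, and that sign turned to -0.35 with quantile normalization and -0.26 with median centring. Mutants gave 3.03 and 4.89 for Nipa1, and 0.09 and 0.42 for Nipa2, of which the first turned to -0.59 with quantile normalization and -0.55 with median centring, both called.

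Otud7a encodes an OTU deubiquitinase that is enriched in neurons. Probe set 1450250_at read 9.88, 10.31, 9.86 and 10.12 in wild-type brain against 5.66, 5.94, 6.05 and 6.14 in wild-type muscle. The groups were far apart, with a difference of 4.09 (17.1-fold, adjusted p = 7.05e-09) and of 4.30 in the mutants. Otud7a 1458979_at differed by 2.16 in wild-type mice and 2.42 in mutants. Klf13, a zinc finger transcription factor found in many cell types, was higher in brain by 1.39 (1432543_a_at, adjusted p = 2.27e-05) and 1.11 (1436316_at). The call for 1436316_at was lost with quantile normalization (adjusted p = 0.122) and median centring (0.0675).

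Tubgcp5, a part of the gamma-tubulin ring complex that seeds microtubules, was higher in wild-type brain by 1.77 (adjusted p = 4.03e-07) and in mutant brain by 1.89. Oca2, the transporter that sets the pH of melanosomes, was dim: its probe set read 6.51, 6.61, 6.82 and 6.98 in wild-type brain and 5.23, 5.68, 5.67 and 5.88 in wild-type muscle. It was therefore a little above the low-level limit in brain, 6.10, and around the limit in muscle, 5.62. The difference of 1.11 passed in wild-type mice, and that of 0.69 in mutants (adjusted p = 0.0284). The mutant call was lost with quantile normalization (adjusted p = 0.385) and median centring (0.85), and without mutant muscle array 2 (0.0807) or 3 (0.064).

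Gabrg3 encodes the gamma3 subunit of the GABA-A receptor, the rarest of the gamma subunits. Its 3 probe sets tested in wild-type mice were all higher in brain, by 1.63 (1445846_at), 1.71 (1444549_at) and 2.10 (1439717_at), and 1430101_at, shared with 6330406O05Rik, by 3.33. For the last 3 the wild-type muscle means, 5.13, 4.40 and 4.62, lay under the low-level limit of 5.62, so the size of these differences depends on the offset and the floor. These 3 entered on their brain level alone, so a higher value in brain was close to fixed for them. Only 1445846_at was bright enough to be tested in both tissues. In the mutants 1445846_at differed by 1.57 and 1444549_at by 1.03, a call that was lost with median centring (0.40, adjusted p = 0.108). There 1422187_at was tested as well and differed by 1.11 (adjusted p = 6.24e-05), while 1439717_at was too dim to enter. The mutant muscle means of 1444549_at and 1422187_at, 5.45 and 4.94, were also under 5.62, so their direction was close to fixed too.

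Herc2, a very large ubiquitin ligase with roles in DNA repair, stood with Nipa2 as the member closest between the tissues. Herc2 1426491_at read 11.01, 10.83, 10.66 and 10.78 in wild-type brain and 10.67, 10.55, 10.55 and 10.47 in wild-type muscle, and the ranges overlapped. The difference of 0.26 (adjusted p = 0.0414) was below the median shift, turned to -0.37 with quantile normalization and -0.42 with median centring, and was lost without 6 of the 8 arrays in turn. In mutants it was -0.16 (adjusted p = 0.214), and it was called lower in brain with quantile normalization (-0.78, adjusted p = 0.000114) and median centring (-0.79, adjusted p = 0.000188). The dimmer Herc2 1427623_at differed by 0.89 in wild-type mice and by 0.41 in mutants (adjusted p = 0.0639). The wild-type call was lost with median centring (0.22, adjusted p = 0.121). The mutant value was called without mutant muscle array 3 (adjusted p = 0.0339), and turned to -0.14 with quantile normalization and -0.22 with median centring.

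Promoter sequences of 4 members are shown because they set Nipa2 beside its neighbour Nipa1, and Gabra5 and Otud7a, which also differed widely between the tissues, beside both. Each is the 250 bases before the annotated gene start in RefSeq on GRCm38.p6, read 5′ to 3′ on the strand of the gene, with every CG in capitals. All 9 members had at least 1 window in the RefSeq table, 10 in all.
Nipa1, chr7:56019601-56019850, minus strand: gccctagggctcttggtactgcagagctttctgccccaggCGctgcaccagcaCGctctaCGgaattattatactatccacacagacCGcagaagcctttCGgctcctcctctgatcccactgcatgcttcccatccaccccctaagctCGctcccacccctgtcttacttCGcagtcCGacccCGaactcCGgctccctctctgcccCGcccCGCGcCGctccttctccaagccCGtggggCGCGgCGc
Nipa2, chr7:55962494-55962743, minus strand: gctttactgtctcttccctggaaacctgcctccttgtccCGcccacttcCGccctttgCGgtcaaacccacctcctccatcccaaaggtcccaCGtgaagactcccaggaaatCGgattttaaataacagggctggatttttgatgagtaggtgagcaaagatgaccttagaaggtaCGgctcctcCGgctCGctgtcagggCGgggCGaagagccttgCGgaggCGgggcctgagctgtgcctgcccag
Gabra5, chr7:57510060-57510309, minus strand: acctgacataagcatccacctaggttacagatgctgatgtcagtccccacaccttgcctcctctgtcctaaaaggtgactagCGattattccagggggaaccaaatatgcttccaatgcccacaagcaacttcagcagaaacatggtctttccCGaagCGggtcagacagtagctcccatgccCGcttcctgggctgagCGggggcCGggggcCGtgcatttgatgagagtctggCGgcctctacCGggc
Otud7a, chr7:63444522-63444771, plus strand: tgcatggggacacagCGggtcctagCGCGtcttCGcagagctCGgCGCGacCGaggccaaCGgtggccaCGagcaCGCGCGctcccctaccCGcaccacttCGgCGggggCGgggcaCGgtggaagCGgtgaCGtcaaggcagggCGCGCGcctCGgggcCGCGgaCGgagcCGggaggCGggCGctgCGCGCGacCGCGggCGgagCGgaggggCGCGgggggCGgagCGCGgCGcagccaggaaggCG
The motif searched was CG, which reads the same on both strands. Nipa1 held 18 CG and Nipa2 12, and 21.7% and 33.5% of all 32851 windows held at least as many. Gabra5 held 9 (40.3%) and Otud7a 44 (0.539%), against a median of 6 over all windows. All 4 were above that median. Oca2 held 2, below that median, and 81.2% of windows held at least as many. The letters TATAAA, searched on the strand of the gene, were in 0 of the 10 member windows and in 7.59% of all windows. These counts describe letters in the windows, and binding and methylation were not measured.

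**Figure D2:**
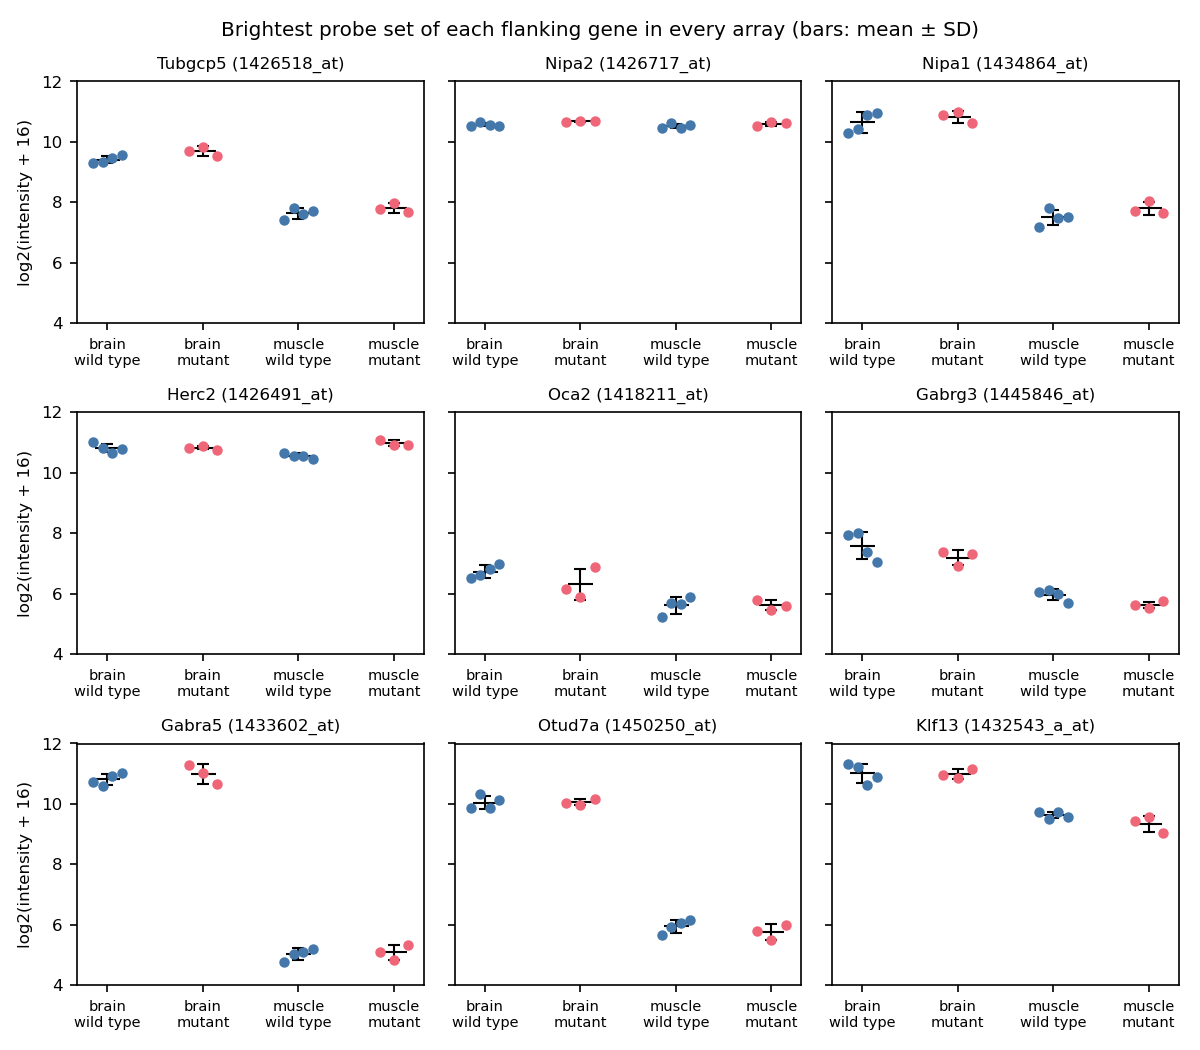
Level (y axis, log2 of intensity + 16) of the brightest probe set of each of the 9 genes in every array of the 4 groups (x axis; wild type blue, mutant red), with bars for mean and SD. Gabra5, Otud7a and Nipa1 sit well above their muscle values in brain in both genotypes, Nipa2 is nearly level across all 4 groups as deposited (lower in brain with quantile normalization or median centring), and Herc2 in mutant muscle lies above Herc2 in wild-type muscle.

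The mutant brain was compared with the wild-type brain to ask whether the flanking genes differ when the imprinting center is deleted. None of the 17 tested member probe sets passed an adjusted p of 0.05 in limma's moderated test, and the smallest was 0.614. At an unadjusted p of 0.05 there were 3, Tubgcp5 1426518_at and Otud7a 1458979_at above 0 and Herc2 1427623_at below. Of all 33778 probe sets 24 were called, 0 higher and 24 lower (0.0711%), and 2145 had an unadjusted p under 0.05 (6.35%). Member differences ran from -0.53 to 0.31, with a median of -0.03 against 0.02 for all probe sets. They were positive in 8 of 17, against 53.5% of all. Of the 17 unadjusted 95% intervals, 16 lay within 1 log2 unit of 0 on both sides and 5 within 0.5, so smaller differences could not be settled. The exception was Gabrg3 1439717_at.

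**Figure D3:**
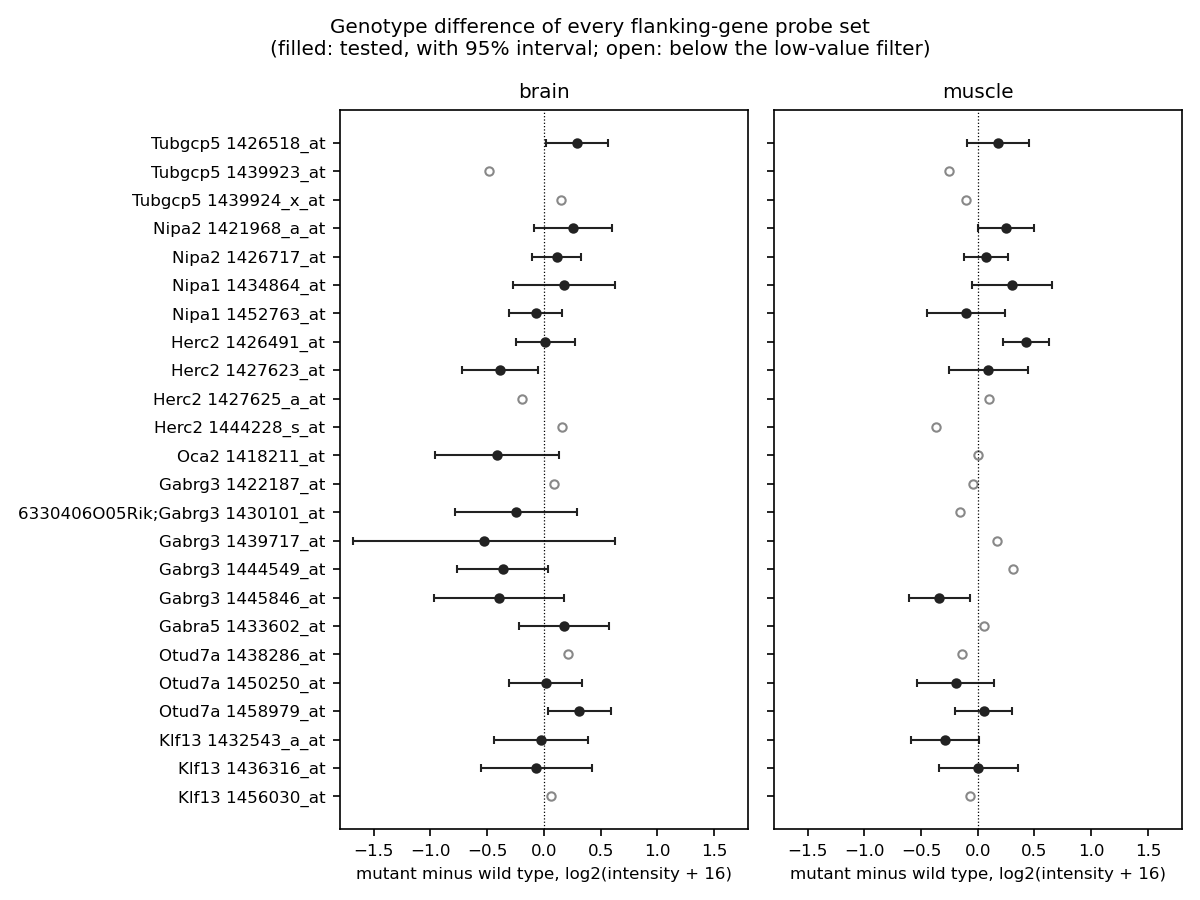
Mutant minus wild-type difference (x axis, log2 of intensity + 16) of each member probe set (y axis) in brain and muscle, 3 against 4 arrays each, with unadjusted 95% intervals from limma for tested probe sets (filled) and open circles for probe sets below the filter on low values. Most intervals cross 0, and that of Herc2 1426491_at in muscle, 0.23 to 0.63, lies farthest to the right of it.

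Among the transporters and the cytoskeletal gene, Tubgcp5 1426518_at read 9.30, 9.32, 9.45 and 9.55 in wild-type brain and 9.71, 9.84 and 9.54 in mutants. The ranges overlapped only at 9.54 to 9.55, and the difference was 0.29 (SE 0.12, 95% interval 0.01 to 0.56, adjusted p = 0.614). The untested Tubgcp5 1439923_at went the other way, at 5.51, 5.29, 5.23 and 5.30 against 4.78, 5.15 and 4.63. That dim probe set was near the floor of 4, and the third, the untested 1439924_x_at, differed by 0.15, the sign of 1426518_at. Nipa2 1426717_at read 10.54, 10.65, 10.57 and 10.53 in wild-type brain and 10.67, 10.70 and 10.69 in mutants. Every mutant was higher, but by little: the difference was 0.11 (SE 0.09, adjusted p = 0.635). Nipa2 1421968_a_at differed by 0.26 (SE 0.15, 95% interval -0.09 to 0.60). The Nipa1 probe sets differed by 0.18 (SE 0.19) and -0.07 (SE 0.10), both with intervals across 0. Without wild-type arrays 1 and 2 the first of these, 1434864_at, turned to -0.11.

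The ubiquitin genes showed values on both sides of 0. Otud7a 1458979_at read 7.99, 7.94, 7.69 and 8.01 in wild-type brain and 8.33, 8.12 and 8.20 in mutants. All 3 mutants were above all 4 wild types, with a difference of 0.31 (SE 0.12, 95% interval 0.04 to 0.59, adjusted p = 0.614). The brighter Otud7a 1450250_at differed by 0.02 (SE 0.14, 95% interval -0.30 to 0.34). Herc2 1427623_at read 7.16, 7.20, 7.18 and 6.91 in wild-type brain and 6.53, 7.02 and 6.64 in mutants. Wild-type array 4 fell inside the mutant range, and the difference was -0.38 (SE 0.15, 95% interval -0.72 to -0.05, adjusted p = 0.614). The brighter Herc2 1426491_at differed by 0.01 (SE 0.11, 95% interval -0.25 to 0.27), so the probe sets of Herc2 did not move together. Groups that did not overlap were found for 2 of the 17 tested members, Otud7a 1458979_at and Nipa2 1426717_at, against 7.87% of all probe sets.

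Oca2 read 6.51, 6.61, 6.82 and 6.98 in wild-type brain and 6.16, 5.89 and 6.89 in mutants. Mutants 1 and 2 were low and mutant 3 lay among the wild types, which gave a difference of -0.42 (SE 0.24, 95% interval -0.96 to 0.13, adjusted p = 0.614). Klf13 differed by -0.03 (1432543_a_at, SE 0.18) and -0.07 (1436316_at, SE 0.21). Both Klf13 values rested on the arrays that stood apart: without wild-type arrays 1 and 2 they were 0.22 and 0.15.

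The GABA-A receptor members differed in sign. Gabra5 averaged 10.82 ± 0.18 (SD, n = 4) in wild-type brain and 10.99 ± 0.32 (SD, n = 3) in mutant brain, a difference of 0.17 (SE 0.17, 95% interval -0.22 to 0.57, adjusted p = 0.672). It was 0.02 without mutant array 1, 0.34 without mutant array 3, and 0.03 without wild-type arrays 1 and 2. Gabrg3 1445846_at read 7.93, 8.0, 7.37 and 7.05 in wild-type brain and 7.39, 6.90 and 7.30 in mutants. Wild-type arrays 1 and 2 were high, and the other wild types lay among the mutants. The difference was -0.39 (SE 0.25, 95% interval -0.97 to 0.18, adjusted p = 0.614). Gabrg3 1444549_at differed by -0.36 (SE 0.17), 1430101_at by -0.24 (SE 0.23) and 1439717_at by -0.53 (SE 0.50, 95% interval -1.68 to 0.62). For the last of these, wild-type array 1 read 8.04 and the other 6 brain arrays 5.70 to 6.27.

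Without wild-type brain arrays 1 and 2 the Gabrg3 1445846_at difference was -0.02, that of 1444549_at was -0.15, and that of 1430101_at was 0.15. The other Gabrg3 probe sets followed each other over the 7 brain arrays, at a Pearson r of 0.933 between 1444549_at and 1445846_at and of 0.635 to 0.903 for the other pairs, as a description over arrays that share these 2 high samples. The dim 1422187_at did not, at -0.18 to 0.46. Striatum markers (8 named, 6 measured and tested) averaged 11.33, 10.69, 8.90 and 10.34 on the wild-type brain arrays and 9.93, 8.82 and 10.11 on the mutant ones, and were thus high on wild-type arrays 1 and 2 as well. All 6 had a difference below 0, at a median of -0.71, and 0 of 6 passed an adjusted p of 0.05 in limma or an unadjusted one. Their part in the Gabrg3 values was not tested. In whole tissue, fewer cells of a type and less RNA per cell cannot be told apart.

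**Figure D4:**
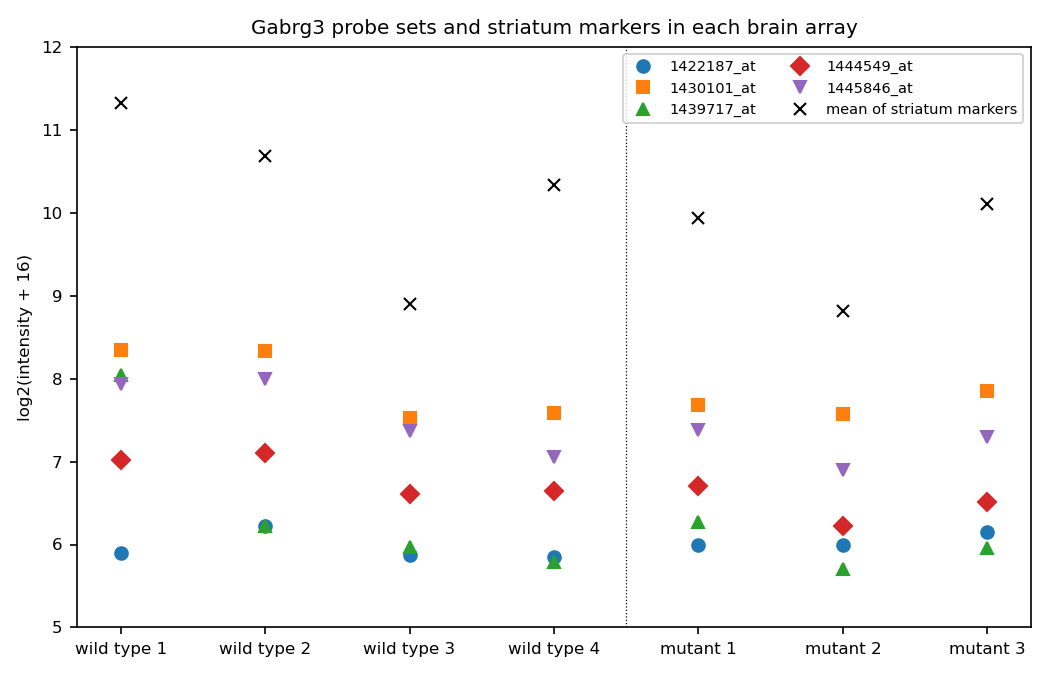
Level (y axis, log2 of intensity + 16) of the Gabrg3 probe sets, 1430101_at (shared with 6330406O05Rik) included, and the mean of 6 striatum markers on each brain array (x axis). Wild-type arrays 1 and 2 are the high ones for 1430101_at, 1444549_at, 1445846_at and the markers, and 1439717_at reached 8.04 on wild-type array 1 alone.

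The same question was asked of muscle. None of the 12 tested member probe sets passed, and the smallest adjusted p in limma's moderated test was 0.134. At an unadjusted p of 0.05 there were 3, Herc2 1426491_at and Nipa2 1421968_a_at above 0 and Gabrg3 1445846_at below. Of all 33778 probe sets 48 were called, 8 higher and 40 lower (0.142%), and 4083 had an unadjusted p under 0.05 (12.1%). Member differences ran from -0.34 to 0.43, with a median of 0.06 against -0.0002 for all probe sets, and 8 of 12 were positive against 49.9% of all. All 12 unadjusted 95% intervals lay within 1 log2 unit of 0 on both sides and 7 within 0.5. With array quality weights 4 members passed, as did 2998 probe sets in all, against 48 without weights.

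Herc2 1426491_at had the largest difference of the members in muscle. It read 10.67, 10.55, 10.55 and 10.47 in wild-type muscle and 11.10, 10.94 and 10.93 in mutants. All 3 mutants were above all 4 wild types, the only tested member for which the groups did not overlap, against 11.9% of all probe sets. The difference was 0.43 (SE 0.09, 95% interval 0.23 to 0.63, adjusted p = 0.134), a 1.35-fold higher intensity on this scale (1.17 to 1.55). Over 18 alternative settings it was 0.37 to 0.47, with an adjusted p of 0.0204 (array weights) to 0.325. The second Herc2 probe set, 1427623_at, differed by 0.09 (SE 0.15, adjusted p = 0.84). Herc2 1427625_a_at and 1444228_s_at, too dim to test, differed by 0.10 and -0.37. Beside these, endothelium markers averaged 8.62 to 8.96 on wild-type and 8.19 to 8.67 on mutant muscle arrays, and macrophage markers 8.76 to 9.07 and 8.90 to 9.38. Fat cell markers averaged 9.30 to 11.32 on wild-type and 9.29 to 11.65 on mutant muscle arrays, and slow fibre markers 9.26 to 11.76 and 10.29 to 11.64. The part of these markers in the Herc2 values was not tested.

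Nipa2 1421968_a_at read 9.33, 9.33, 9.50 and 9.63 in wild-type muscle and 9.71, 9.83 and 9.57 in mutants. Mutant 3 fell below wild type 4, and the difference was 0.25 (SE 0.11, 95% interval 0.01 to 0.50, adjusted p = 0.402). The other Nipa2 probe set differed by 0.07 (SE 0.09). Nipa1 1434864_at read 7.18, 7.82, 7.48 and 7.51 against 7.72, 8.03 and 7.65, a difference of 0.30 (SE 0.16, adjusted p = 0.48). Nipa1 1452763_at differed by -0.11 (SE 0.15). For each of the transporters, then, the probe sets of 1 gene did not give the same size.

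Gabrg3 1445846_at, dim in muscle, read 6.05, 6.12, 6.0 and 5.69 in wild types and 5.61, 5.52 and 5.74 in mutants. The difference was -0.34 (SE 0.12, 95% interval -0.61 to -0.07, adjusted p = 0.316), and the mutant mean of 5.62 was at the low-level limit of muscle, 5.62. Klf13 1432543_a_at read 9.72, 9.51, 9.74 and 9.56 in wild-type muscle and 9.44, 9.55 and 9.03 in mutants. Mutant 3 was the lowest and the ranges overlapped, with a difference of -0.29 (SE 0.13, 95% interval -0.59 to 0.01, adjusted p = 0.427). Klf13 1436316_at differed by 0.01 (SE 0.15). Otud7a differed by -0.19 (SE 0.15) and 0.05 (SE 0.11), and Tubgcp5 by 0.18 (SE 0.12). The means of Oca2, 5.62 and 5.62, and of Gabra5, 5.02 in wild types and 5.08 in mutants, were not tested in muscle because of their low level. The 7 probe sets too dim for the genotype test in either tissue belong to Tubgcp5 (2), Herc2 (2), Gabrg3, Otud7a and Klf13 (1 each). Their differences ran from -0.48 (Tubgcp5 1439923_at) to 0.21 (Otud7a 1438286_at) in brain and from -0.37 (Herc2 1444228_s_at) to 0.10 (Herc2 1427625_a_at) in muscle. The largest of these was at 4.63 to 5.51 in brain, close to the floor.

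Whether the genotype difference itself differed between tissues was tested over all 14 arrays. None of 17 member probe sets passed in limma's interaction contrast, at a smallest adjusted p of 0.871, and 2 had an unadjusted p under 0.05. Of all 36917 probe sets 27 were called (0.0731%) and 1993 had an unadjusted p under 0.05 (5.4%). The 2 members were Herc2 1426491_at, at 0.01 in brain and 0.43 in muscle (brain minus muscle -0.42, SE 0.14, adjusted p = 0.871), and Gabrg3 1444549_at, whose muscle group means of 5.13 and 5.45 were below the low-level limit (-0.68, adjusted p = 0.908). The higher reading of Herc2 1426491_at in mutant muscle, itself not called, was thus not shown to be particular to muscle.

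Set along the chromosome, the members lie on either side of genes with far larger differences. Of 26 measured genes from Tubgcp5 to Klf13 in RefSeq order, the 9 members, each by its brightest probe set, had brain differences of -0.42 to 0.29, and 0 of 9 were called. The 10 genes set here as the imprinted domain ran from -4.87 to 0.76, and 3 of 7 tested were called. Among the 7 other genes 2 of 3 tested were called, A230006K03Rik (-3.97) and B230209E15Rik (-3.27). Both lie between Snrpn and Ndn, thus within the domain, and the remaining tested gene, Chrna7, was not called. The member nearest the domain, Gabra5, differed by 0.17 in brain, and Atp10a and Ube3a, between it and Snhg14, by -0.42 and 0.76, both with an adjusted p of 0.614. On the far side Chrna7 differed by 0.29 and Otud7a by 0.02. In muscle the members ran from -0.34 to 0.43 with 0 of 7 tested called, and the domain from -2.20 to 0.49 with 2 of 7 called.

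**Figure D5:**
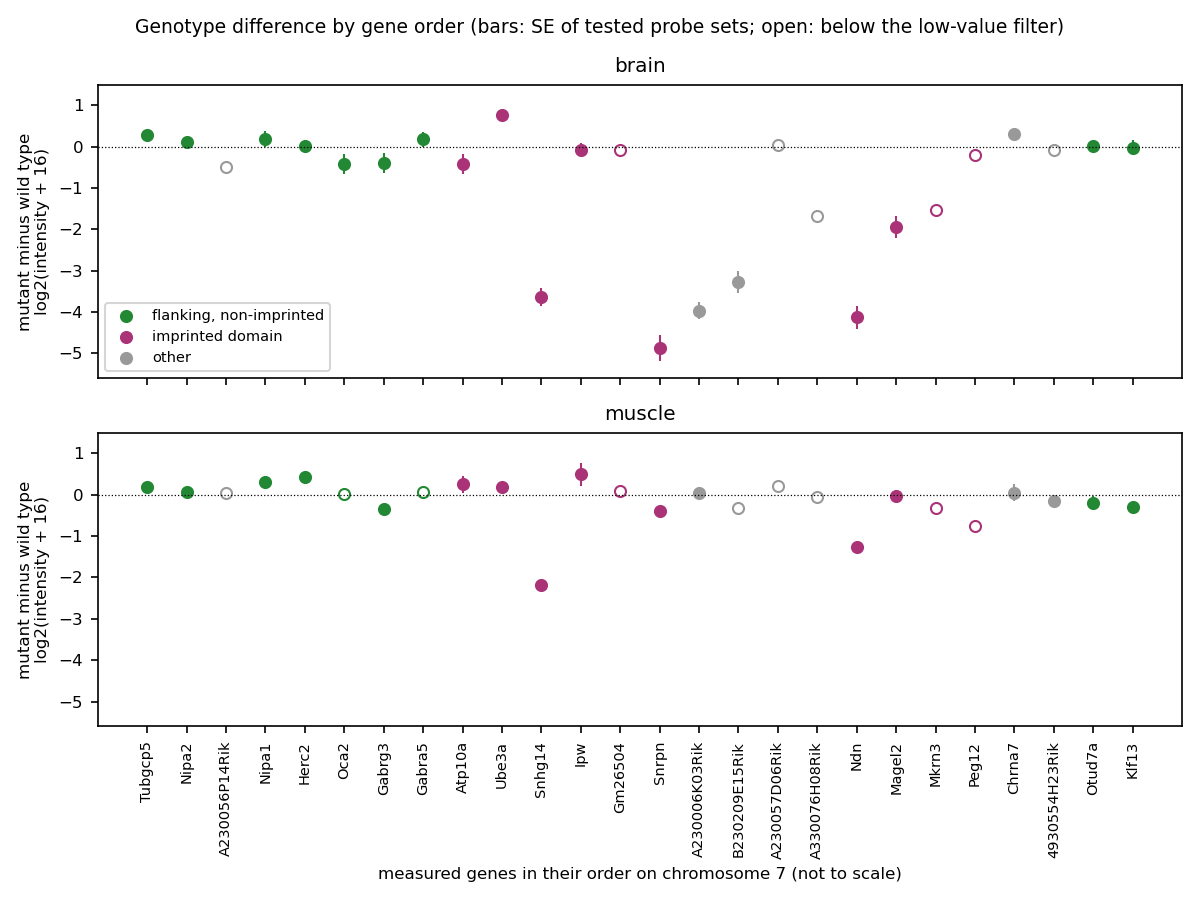
Mutant minus wild-type difference (y axis, log2 of intensity + 16) of the 26 measured genes in their order on chromosome 7 (x axis, not to scale), each by its brightest probe set, with SE bars for tested genes and open circles below the filter on low values. The members (green) stay between -0.42 and 0.43 in both tissues, while Snhg14, Snrpn and Ndn reach -3.63, -4.87 and -4.13 in brain.

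Genes that share a role with a member, from lists of related genes that hold the members as well, gave no call either. Each of the lists had 0 genes past an adjusted p of 0.05 in limma in either tissue, and the counts that follow are those at an unadjusted p of 0.05 beside the median difference. Of 13 GABA-A receptor subunits tested in brain, 1 reached it, Gabrr1 at -0.26, with a list median of -0.01. In muscle 3 of 8 did, the member Gabrg3 among them, and 0 of 8 were positive, with a median of -0.16. Of 18 magnesium transporters and their regulators, 0 reached it in brain, where 15 were positive at a median of 0.09. In muscle 4 of 16 did, at a median of -0.04, led by Cnnm3, a magnesium transport mediator, at -0.66 (adjusted p = 0.11) and the magnesium carrier Slc41a1 at -0.56 (adjusted p = 0.124).

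Of 11 genes of the gamma-tubulin complex, 10 were positive in brain at a median of 0.08, and only Tubgcp5 itself reached the unadjusted threshold. In muscle 1 of 10 did, the complex member Mzt1 at 0.24 (adjusted p = 0.321). Of 13 HERC ligases and partners, 2 reached it in brain, Ube3a at 0.76 and Brca1 at -0.41, and 2 in muscle, Herc2 and Herc3, the latter at -0.38 (adjusted p = 0.229). The 7 tested melanin synthesis genes, Oca2 among them, were all below 0 in brain at a median of -0.24, and 1 reached the threshold, the melanosome matrix gene Pmel at -0.38. In muscle 0 of 6 did, at a median of -0.01. Among Krueppel-like factors 1 of 15 reached it in brain, and 5 of 16 in muscle, led by Klf12 at -0.59 (adjusted p = 0.196). Of 14 OTU deubiquitinases 1 reached it in brain, where 12 were positive at a median of 0.11, and 0 in muscle, at a median of -0.02. These shares are to be read against 6.35% of all probe sets in brain and 12.1% in muscle.

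The genes most like each member over the 7 brain arrays were taken by Pearson r of the brightest probe sets, among all genes tested in brain. Nipa1 was most like Slc39a12, a zinc transporter (r = 0.998, rho = 0.964), and Herc2 most like Arglu1 (r = 0.994, rho = 1.00). Gabrg3 was most like Zbtb7c (r = 0.994), Tubgcp5 like 4732491K20Rik (0.992), Klf13 like Adgrl2 (0.991), and Otud7a like Zfp652os (0.989). Nipa2 was most like Vps13a (0.988), Oca2 like Bfsp1 (0.986), and Gabra5 like Tnpo1 (0.986). Without the 2 arrays farthest from the median the 18 best values stayed between 0.809, for Oca2 and Irf5, and 0.992. The highest of so many values over 7 arrays is high by selection, so these are descriptions only.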

How the data were processed

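The authors deposited 1 intensity value per probe set and array, on a linear scale. PLIER and the Affymetrix Expression Console were used, per the submitters' processing notes; versions, background correction and normalization were not given in the sources used here. Of 45101 probe sets, 64 array controls were left out. Symbols came from the platform annotation, and 9 of 9 members matched RefSeq genes (GRCm38.p6) by symbol and Entrez number.

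Values were taken as log2(intensity + 16). Probe sets at or above the 0.25 quantile of mean level in a tissue, or in either tissue for comparisons across tissues, entered limma 3.58.1 (lmFit, eBayes; R 4.3.3), each tissue alone. The 2-sided p-values were adjusted by Benjamini-Hochberg over all tested probe sets, with a threshold of 0.05. Scripts were tested on simulated data. Intervals are at 95% and unadjusted.

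The members, related gene lists and markers were chosen with earlier results of these data known. Named genes were all members, the 2 genes of each list with the smallest p per tissue or fewer, the 2 genes most like each member in brain, and the measured genes between the outermost members. Alternatives covered the pseudocount, scaling, filter, variance model, array weights, gene level, replicate number, a joint fit and left-out arrays.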

Additional observations from a re-analysis of the deposited data

Results flagged for a closer look

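In 48 groups of 4 wild-type arrays (24 member probe sets in 2 tissues), 4 held an array far from the other 3 by Dixon's criterion, which chance alone meets in about 1 of 20 groups. Gabrg3 1422187_at read 6.22 on wild-type brain array 2 against 5.85 to 5.90 on the others, and 5.33 on wild-type muscle array 1 against 4.83 to 4.89. Herc2 1427623_at read 6.91 on wild-type brain array 4 against 7.16 to 7.20. Klf13 1456030_at read 5.37 on wild-type brain array 1 against 5.58 to 5.61. Of these, only Herc2 1427623_at in brain was bright enough to be tested there.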

How the results depend on the processing

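No member passed for genotype in brain under 21 alternatives or for the interaction under 24. In muscle 17 of 18 alternatives gave 0, and array weights gave 4: Herc2 1426491_at (0.40, adjusted p = 0.0204), Gabrg3 1445846_at (-0.41, 0.0361), Nipa1 1434864_at (0.48, 0.0452) and Nipa2 1421968_a_at (0.33, 0.0474). Over all probe sets the brain calls went from 24 to 9 at gene level and 11 with the replicate block, the muscle calls from 48 to between 12 (replicate block) and 95 (intensity trend), array weights aside, and the interaction calls from 27 to between 12 and 54. The tissue counts of 16 and 14 fell to 8 and 6 at gene level, where only the brightest probe set of a gene is tested, and were 14 to 16 and 13 to 16 with an array left out. With the replicate block, both were 15, and Herc2 1427623_at gained a tissue call in mutants (adjusted p = 0.0359); the labels do not say that the numbers pair samples, and same-number correlations were -0.38 to -0.01 between genotypes in brain, 0.02 to 0.42 in muscle and -0.002 to 0.17 between tissues, where not every sample correlated best with its own number. Scaling turned the wild-type tissue difference of Nipa2 1421968_a_at to -0.35 (quantile) and -0.26 (median centring) and of Herc2 1426491_at to -0.37 and -0.42; for mutants Nipa2 1421968_a_at became -0.37 and -0.21. Nipa2 1426717_at, in both genotypes, and Herc2 1426491_at in mutants gained a call of lower in brain under both scalings. Under quantile scaling 11514 probe sets were higher and 15225 lower in wild-type brain, and under median centring 11068 and 15323, against 20970 and 6756. The cause of the array-weight calls was not tested. With 3 and 4 arrays, differences under 0.5 log2 units mostly could not be settled.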
